A study of Homo sapiens with 4 samples.

Results

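The genes of glycolysis and of the hypoxia-inducible factor (HIF) response were followed in MV4;11, an established human acute myeloid leukaemia line. They are 37 genes picked by name, out of 56638 gene symbols in the count table, and all 37 had a row. By role they comprise 18 glycolytic enzymes, 4 transporters of glucose and lactate, 4 regulatory kinases, the factor subunit HIF1A and 10 other HIF targets. One group of 2 libraries came from cells given the TLR1/TLR2 agonist CU-T12-9 at 1 µg/mL for 24 h, and the other group of 2 from DMSO-treated cells. Both groups are parental cells, with no genetic change named. The control is given as PBS in the protocol and as DMSO for each sample, and the sample's own name is used here. Nothing in the labels ties the replicates to separate cultures, so a p-value here covers library-to-library spread alone, which may be technical.

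Glycolysis splits glucose into pyruvate in the cytosol, and lactate dehydrogenase then turns pyruvate into lactate, which leaves the cell through monocarboxylate transporters. HIF is a transcription factor whose alpha subunit is hydroxylated and destroyed when oxygen is plentiful. When it accumulates it switches on most glycolytic genes together with genes for blood vessel growth, mitophagy and its own hydroxylases. Myeloid cells use the same factor during inflammation, where Toll-like receptor signals are known to raise HIF1A transcription through NF-kB in macrophages.

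The CU-T12-9 libraries held 23201117 and 23087102 counted reads and the DMSO libraries 25867733 and 23892934. Of 12 markers of a myeloid leukaemia line, 11 exceeded 1 CPM in at least 1 library (CPM, the reads of a gene scaled to a common library size after TMM adjustment), and CD14 had 1 to 9 reads a library. All 11 tested myeloid markers passed, 5 higher and 6 lower under CU-T12-9, and the summed level of the 12 was 2269 to 2378 CPM under CU-T12-9 and 3028 to 3111 CPM under DMSO. LYZ made up most of that sum and of its difference between groups, averaging 1276 CPM under CU-T12-9 and 2002 CPM under DMSO. The granule gene MPO fell to 0.214 and 0.221 CPM under CU-T12-9, against 5.76 and 6.47 CPM under DMSO. FCGR1A, LYZ, CSF3R, CD33 and FLT3 fell as well, with log2 fold changes of -1.25, -0.65, -0.50, -0.41 and -0.31. The integrin gene ITGAM had a log2 fold change of 2.06, and SPI1, MEIS1, CEBPA and HOXA9 had 0.63, 0.46, 0.44 and 0.43. These markers moved along with the glycolytic and HIF genes, and their part in those changes was not tested. The summed level of 7 erythroid markers stayed at or below 0.0428 CPM, and among 7 T and NK cell markers NKG7 alone exceeded 1 CPM, with CD3D, CD3G and CD2 at 0. NKG7 averaged 30.2 ± 1.23 CPM under CU-T12-9 and 15.4 ± 0.518 CPM under DMSO (SD, n = 2 each). Within each group the 2 libraries differed by more than sampling noise, the CU-T12-9 pair (chi-square 6.99 for each degree of freedom) more than the DMSO pair (2.42), and all 4 count as separate samples. These are bulk RNA measurements, in which fewer cells expressing a gene and less RNA per cell cannot be told apart.

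Under CU-T12-9 the members moved in opposite directions along the pathway. Hexokinase 2, at the entry of glycolysis, rose 2.25-fold, while the enzymes from triosephosphate isomerase to enolase fell by similar amounts. Among the enzymes and transporters, lactate dehydrogenase and the lactate transporter SLC16A1 fell most, and pyruvate kinase PKM rose. HIF1A rose, and so did BNIP3L, VEGFA and KDM3A, whereas the other 5 tested HIF targets did not pass. Of the 35 members with enough reads to test, 13 rose and 13 fell (edgeR quasi-likelihood test, Benjamini-Hochberg adjusted p under 0.05 over all 14018 genes tested). That is 74.3% of them, beside 65.2% of all genes tested, of which 32.0% were higher and 33.2% lower. With so many genes called, a call by itself says little about a member, and the sizes carry the comparison. In a test against a 1.5-fold change, 5 members were higher (HK2, PFKM, HIF1A, BNIP3L and VEGFA) and 5 lower (SLC16A1, PFKP, PGAM1, LDHA and LDHB). These 10 are 28.6% of the tested members, beside 24.6% of all genes. In 29 of the 35 the libraries of the groups did not overlap, beside 82.3% of all genes.

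**Figure D1:**
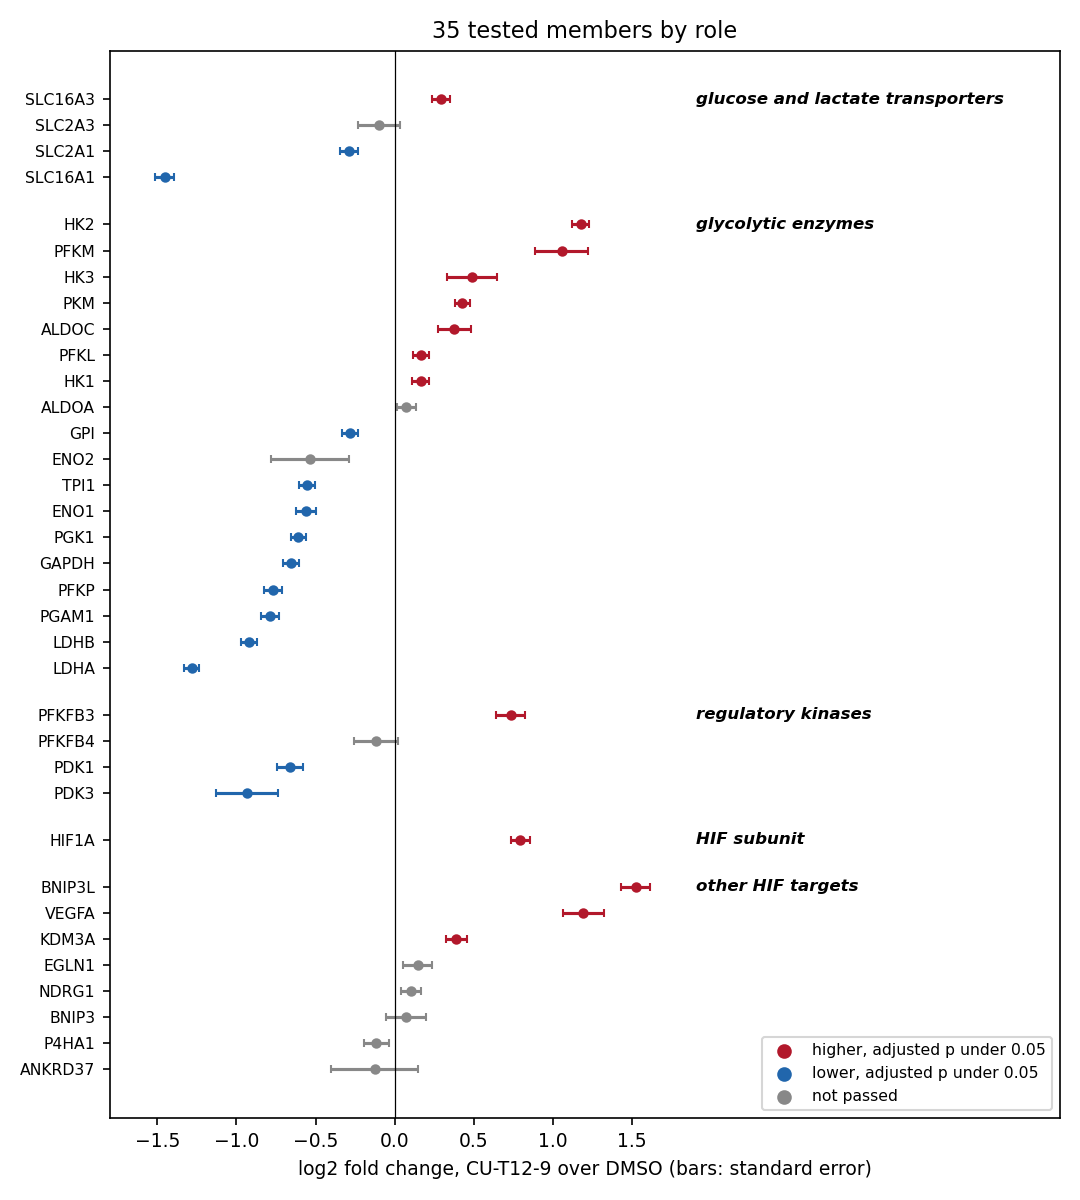
Log2 fold change of CU-T12-9 over DMSO for the 35 tested members, grouped by role, with bars for the standard error of the edgeR fit (n = 2 libraries a group). Enzymes spread from -1.28 for LDHA to 1.17 for HK2, and the other HIF targets from -0.13 for ANKRD37 to 1.52 for BNIP3L.

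SLC2A1 and SLC2A3, the glucose transporters among the members, changed little. SLC2A1 (GLUT1), the widespread basal carrier, had 112 and 116 CPM under CU-T12-9, against 134 and 145 CPM under DMSO. Both treated libraries were below both controls and the gene fell by 0.29 on the log2 scale (SE 0.06, edgeR adjusted p = 0.00168). SLC2A3 (GLUT3), a high-affinity carrier, stood at 5.99 and 5.83 CPM under CU-T12-9 and 6.56 and 6.10 CPM under DMSO, a difference that did not pass (edgeR adjusted p = 0.529). Its near-identical copy SLC2A14 held 2 to 6 reads a library.

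Hexokinases trap glucose as glucose 6-phosphate, and HK2 is the inducible form that can dock on mitochondria. HK2 had 293 and 291 CPM under CU-T12-9, against 126 and 133 CPM under DMSO. The treated libraries lie close together and far above the controls, with a fold change of 2.25 (log2 1.17, SE 0.05, edgeR adjusted p = 9.12e-08). HK1, the housekeeping form, moved by only 0.16 on the log2 scale (78.3 and 79.9 CPM under CU-T12-9, 69.7 and 71.4 CPM under DMSO). HK3, a form of myeloid cells, was scarce, at 5.77 and 5.22 CPM under CU-T12-9 and 3.65 and 4.22 CPM under DMSO. HK1 and HK3 passed in the edgeR fit over all 4 libraries (adjusted p = 0.0237 and 0.0234) but not by DESeq2 (adjusted p = 0.0834 and 0.105). HK1 also lost its call when low counts were not filtered (edgeR adjusted p = 0.0643). Without the first DMSO library their edgeR adjusted p became 0.295 and 0.208, and without the second that of HK1 became 0.178.

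Within a library, the ratio of HK2 to HK1 reads does not depend on scaling. It was 3.75 and 3.64 under CU-T12-9, against 1.81 and 1.86 under DMSO, so the balance shifted 2.01-fold toward HK2. With 2 libraries a group, an exact permutation test of such a ratio, counting both directions, cannot go below p = 0.333, which is the value it gave. Per kilobase of the principal transcript, HK2 made up 68.1% ± 0.286 of hexokinase reads under CU-T12-9 and 51.8% ± 0.332 under DMSO (SD, n = 2 each). With the whole exon length of the gene in place of that transcript, chosen as an alternative after seeing the data, the shares were 77.2% and 63.3%, and HK2 led HK1 in both groups either way.

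Phosphofructokinase commits the sugar to glycolysis and is built from liver (PFKL), muscle (PFKM) and platelet (PFKP) subunits. PFKL, the most read of them, was at 419.8 and 448 CPM under CU-T12-9 and 384 and 389 CPM under DMSO (log2 fold change 0.17, SE 0.05, edgeR adjusted p = 0.018). Its call was lost without the first or the second DMSO library (adjusted p = 0.203 and 0.148). PFKP went the other way, with 40.2 and 38.7 CPM under CU-T12-9 against 67.3 and 67.2 CPM under DMSO. It fell by 0.77 on the log2 scale (SE 0.06, edgeR adjusted p = 3.67e-06). PFKM rose 2.08-fold at a low level, with 4.83 and 4.73 CPM under CU-T12-9 and 2.34 and 2.25 CPM under DMSO (edgeR adjusted p = 4.79e-04). Summed over the subunits, the step stood at 478 ± 19.0 CPM under CU-T12-9 and 456 ± 3.34 CPM under DMSO (SD, n = 2 each), so the total changed less than its parts. Per kilobase of principal transcript PFKL made up 90.1% of the step under CU-T12-9 and 83.6% under DMSO, and with whole exon lengths 84.6% and 75.3%. The ratio of PFKP to PFKL reads was 0.0959 and 0.0863 under CU-T12-9 and 0.175 and 0.173 under DMSO.

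**Figure D2:**
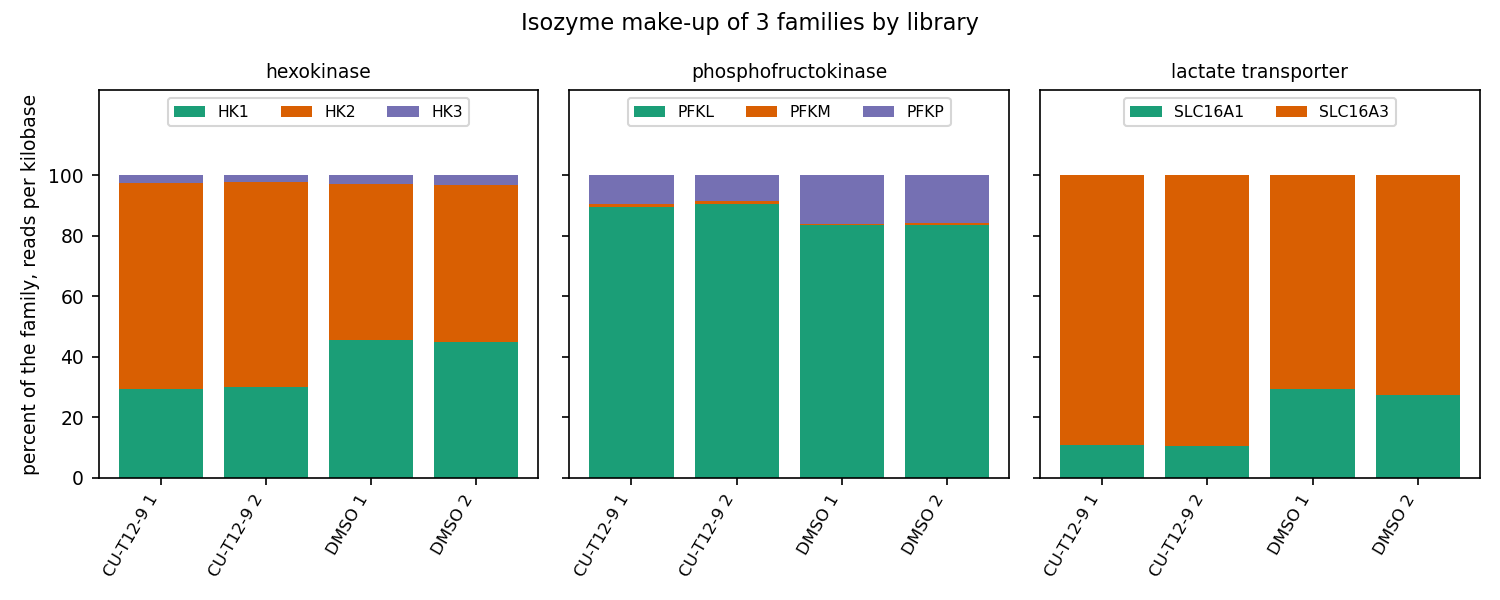
Share of each isozyme in the reads per kilobase of principal transcript of its family, in percent, for each library; colours mark the genes. HK2 takes 68.1% of hexokinase under CU-T12-9 against 51.8% under DMSO, PFKL 90.1% against 83.6% of phosphofructokinase, and SLC16A3 89.5% against 71.8% of the lactate transporter pair.

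The isomerase step before phosphofructokinase and the aldolase step after it moved little. GPI, which interconverts glucose and fructose phosphates, had 428 and 455 CPM under CU-T12-9 and 538 and 534 CPM under DMSO, and fell 1.21-fold (edgeR adjusted p = 0.00103). ALDOA, the main aldolase, had 1214 and 1347 CPM under CU-T12-9 and 1209 and 1226 CPM under DMSO. The first treated library sits between the controls and the second above both, and the difference did not pass (log2 fold change 0.07, SE 0.06, edgeR adjusted p = 0.307). Without the first CU-T12-9 library ALDOA passed (log2 fold change 0.18, adjusted p = 8.28e-05), which rests on a spread taken from the DMSO pair alone. ALDOC, the scarce brain form, rose 1.30-fold to 12.5 and 12.8 CPM under CU-T12-9, against 10.1 and 9.35 CPM under DMSO (edgeR adjusted p = 0.0106). It did not pass by DESeq2 (adjusted p = 0.0538) or without the second DMSO library (edgeR adjusted p = 0.123).

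From the triose phosphates to enolase the most read enzyme of every step fell, each by a factor between 1.47 and 1.73. TPI1, which equilibrates the triose phosphates, had 561 and 595 CPM under CU-T12-9 and 851 and 851 CPM under DMSO (log2 fold change -0.56, SE 0.05). GAPDH makes the NADH of the pathway and is widely used as a reference transcript. It had 2089.9 and 2174 CPM under CU-T12-9 and 3319 and 3389 CPM under DMSO (-0.65, SE 0.05). PGK1, the first ATP-forming enzyme, had 531 and 529 CPM under CU-T12-9 and 809 and 807 CPM under DMSO (-0.61, SE 0.05). In these genes the gap between groups is many times the gap between libraries of a group.

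PGAM1, the mutase that moves the phosphate of phosphoglycerate, had 311 and 342 CPM under CU-T12-9 and 569.7 and 559.8 CPM under DMSO (log2 fold change -0.79, SE 0.06). ENO1, the enolase of most tissues, had 1484 and 1663 CPM under CU-T12-9 and 2332 and 2309 CPM under DMSO (-0.56, SE 0.06). Its treated libraries differ more from each other than those of PGK1 do, yet both stay below the controls. For TPI1, GAPDH, PGK1, PGAM1 and ENO1 the edgeR adjusted p lay between 2.41e-06 and 4.19e-05, and PGAM1 alone of these 5 also passed against a 1.5-fold change (adjusted p = 0.00347). ENO2, the neuronal form, had 1.67 and 2.30 CPM under CU-T12-9 and 3.30 and 2.42 CPM under DMSO and did not pass (adjusted p = 0.0853). Its libraries did not overlap, and it passed when low counts were not filtered (edgeR adjusted p = 0.0437), without the second DMSO library (0.0385) or without the second CU-T12-9 library (0.00636). Pseudogene rows named after GAPDH, PGAM1 and TPI1 held at most 0.0579% of the reads of their parent gene. How multiply mapping reads were treated is not stated, so these rows cannot show whether the parent genes lost reads.

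PKM, which makes pyruvate and the last ATP, was the exception in the later steps of the pathway. It had 1426 and 1491 CPM under CU-T12-9, against 1083 and 1087 CPM under DMSO. The gene rose 1.34-fold (log2 fold change 0.43, SE 0.05, edgeR adjusted p = 5.8e-05). The table counts genes, so the PKM1 and PKM2 splice forms are not separated.

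**Figure D3:**
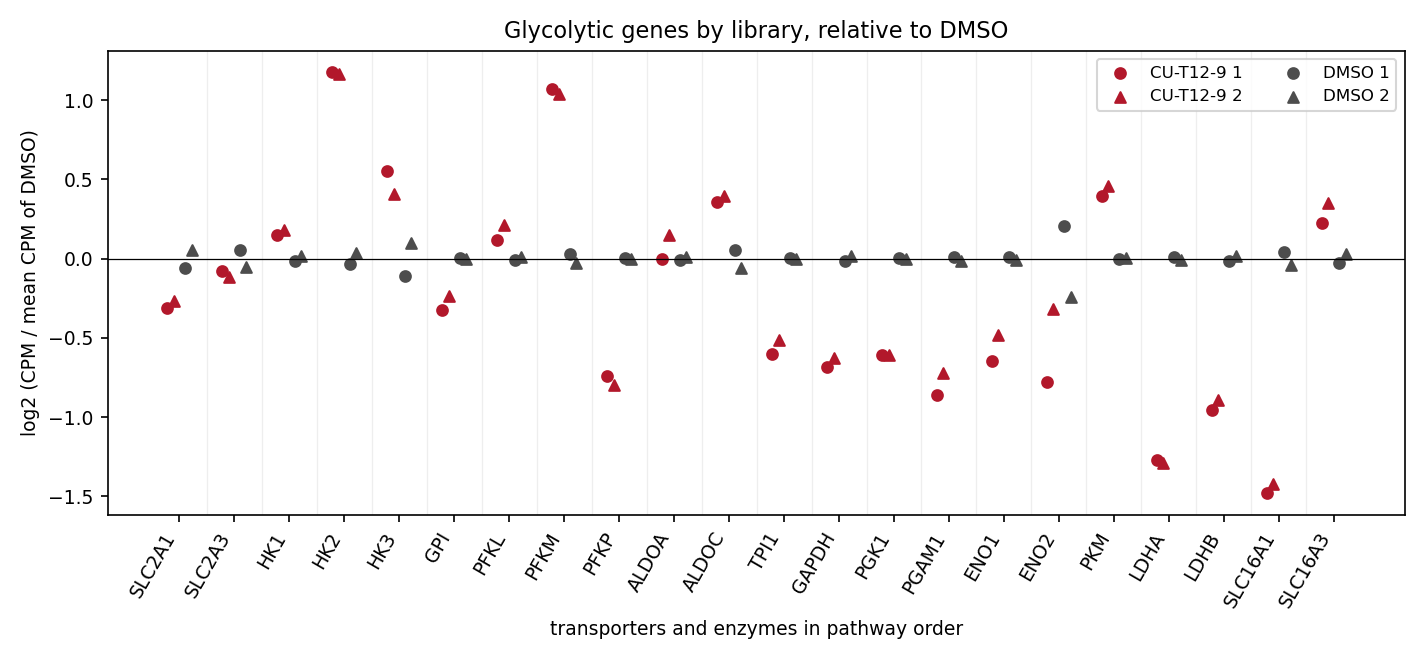
Level of each transporter and glycolytic enzyme in each library, as log2 of its CPM over the mean CPM of the DMSO libraries, with genes in the order of the pathway. HK2 lies above the DMSO line and TPI1 to ENO1, LDHA, LDHB and SLC16A1 below it in both CU-T12-9 libraries, with PKM above the line between them.

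Lactate dehydrogenase regenerates NAD as it turns pyruvate into lactate. LDHA, the form suited to lactate production, had 397 and 393 CPM under CU-T12-9, against 967 and 954 CPM under DMSO, a 2.43-fold fall (log2 fold change -1.28, SE 0.05, edgeR adjusted p = 3.36e-08). LDHB, the heart form, had 498 and 520.4 CPM under CU-T12-9, against 955 and 974 CPM under DMSO, a 1.89-fold fall (-0.92, SE 0.05, edgeR adjusted p = 3.47e-07). Both subunits fell, LDHA further, and the ratio of LDHA to LDHB reads was 0.799 and 0.755 under CU-T12-9 and 1.01 and 0.98 under DMSO.

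The lactate exporters diverged. SLC16A1 (MCT1) carries lactate in either direction and had 34.1 and 35.5 CPM under CU-T12-9, against 98.2 and 92.5 CPM under DMSO. It fell 2.74-fold, the largest fall among the members (log2 fold change -1.45, SE 0.06, edgeR adjusted p = 7.8e-08). SLC16A3 (MCT4), the exporter of highly glycolytic cells, had 313 and 342 CPM under CU-T12-9 and 263 and 273 CPM under DMSO, and rose 1.22-fold (edgeR adjusted p = 0.00163). There were 9.17 and 9.62 reads of SLC16A3 for each read of SLC16A1 under CU-T12-9 and 2.68 and 2.94 under DMSO, a 3.35-fold shift. Per kilobase SLC16A3 made up 89.5% of the pair under CU-T12-9 and 71.8% under DMSO with principal transcripts, which run from 2002 to 4830 bases for this gene, and 84.7% and 62.4% with whole exon lengths. The shift in reads was the largest shift among the 12 ratios of related members compared, and their libraries did not overlap in 11, ENO2 to ENO1 being the exception. The ratio of PDK3 to PDK1 was barely separated, at 0.122 and 0.159 under CU-T12-9 and 0.179 and 0.159 under DMSO, and its log2 shift lay between -0.47 and -0.087 with 1 library left out, the smaller without the first CU-T12-9 library.

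The kinases that steer the pathway also split. PFKFB3, which makes the phosphofructokinase activator fructose 2,6-bisphosphate, had 18.6 and 19.2 CPM under CU-T12-9 and 11.4 and 11.4 CPM under DMSO (log2 fold change 0.73, SE 0.09, edgeR adjusted p = 8.31e-05). Its relative PFKFB4 did not pass, at 5.82 and 6.76 CPM under CU-T12-9 and 7.10 and 6.51 CPM under DMSO. PDK1 and PDK3 phosphorylate pyruvate dehydrogenase and so hold pyruvate back from mitochondria. PDK1 had 15.8 and 15.9 CPM under CU-T12-9 and 24.7 and 25.5 CPM under DMSO (-0.66, SE 0.08, edgeR adjusted p = 7.38e-05). PDK3 had 1.92 and 2.52 CPM under CU-T12-9 and 4.41 and 4.05 CPM under DMSO (-0.93, SE 0.20, edgeR adjusted p = 0.00245). Both fell, with no overlap between groups.

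HIF1A, the oxygen-regulated subunit of the factor, had 70.4 and 72.7 CPM under CU-T12-9, against 41.8 and 40.8 CPM under DMSO. It rose 1.73-fold (log2 fold change 0.79, SE 0.06, edgeR adjusted p = 2.78e-06). The treated libraries lie close together and well above the controls. Transcript counts do not report the HIF1A protein, which is regulated by hydroxylation.

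Among the 10 other HIF targets, 3 rose and none fell, 5 did not pass and 2 were too scarce to test. By edgeR at an unadjusted p under 0.05, 0 were lower, and 0 by DESeq2 or limma-voom. The 3 are 37.5% of the 8 tested, beside 32.0% of all genes higher and 33.2% lower. BNIP3L, a receptor for the removal of mitochondria, had 111 and 135 CPM under CU-T12-9 and 42.3 and 43.2 CPM under DMSO. It rose 2.87-fold, the largest rise among the members (log2 fold change 1.52, SE 0.09, edgeR adjusted p = 6.52e-07). Its relative BNIP3 did not share the rise, with 8.42 and 9.94 CPM under CU-T12-9 and 8.79 and 8.69 CPM under DMSO (edgeR adjusted p = 0.635), so the ratio of BNIP3L to BNIP3 reads shifted 2.73-fold.

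VEGFA, the growth factor for blood vessels, had 80.2 and 58.4 CPM under CU-T12-9, against 29.8 and 31.0 CPM under DMSO (log2 fold change 1.19, SE 0.13, edgeR adjusted p = 3.86e-05). The treated libraries differ from each other, but the lower of them still exceeds both controls, and the log2 fold change ran from 0.98 without the first CU-T12-9 library to 1.40 without the second. KDM3A, a histone H3K9 demethylase, had 118 and 105 CPM under CU-T12-9 and 83.0 and 87.5 CPM under DMSO, a 1.31-fold rise (edgeR adjusted p = 7.1e-04).

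Among the member HIF targets, EGLN1, NDRG1, P4HA1 and ANKRD37 showed no change that passed. EGLN1 (PHD2), the main oxygen-dependent hydroxylase of HIF, had 70.0 and 86.9 CPM under CU-T12-9 and 72.3 and 69.7 CPM under DMSO (log2 fold change 0.14, SE 0.09, edgeR adjusted p = 0.199). NDRG1, a stress-responsive gene, P4HA1, a collagen prolyl hydroxylase, and ANKRD37 had log2 fold changes of 0.10 (SE 0.06), -0.12 (SE 0.08) and -0.13 (SE 0.27). With 1 CU-T12-9 library left out, calls appeared that rest on a spread taken from the DMSO pair alone. Without the first, EGLN1 was higher by 0.32 (edgeR adjusted p = 2.08e-09) and NDRG1 by 0.15 (0.0401). Without the second, P4HA1 fell by 0.22 on the log2 scale (edgeR adjusted p = 0.00212).

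The remaining HIF targets were near or below detection. ADM, a vasodilator peptide, had 8 and 4 reads under CU-T12-9 and 3 and 0 reads under DMSO. The ratio of 12 to 3 reads per library size is 4.35 (95% exact interval 1.17 to 24.0, counting error only). EGLN3 (PHD3), often strongly hypoxia-induced, had no read in any library, which allows at most 0.115 to 0.133 CPM (3 reads), so no fold is given.

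**Figure D4:**
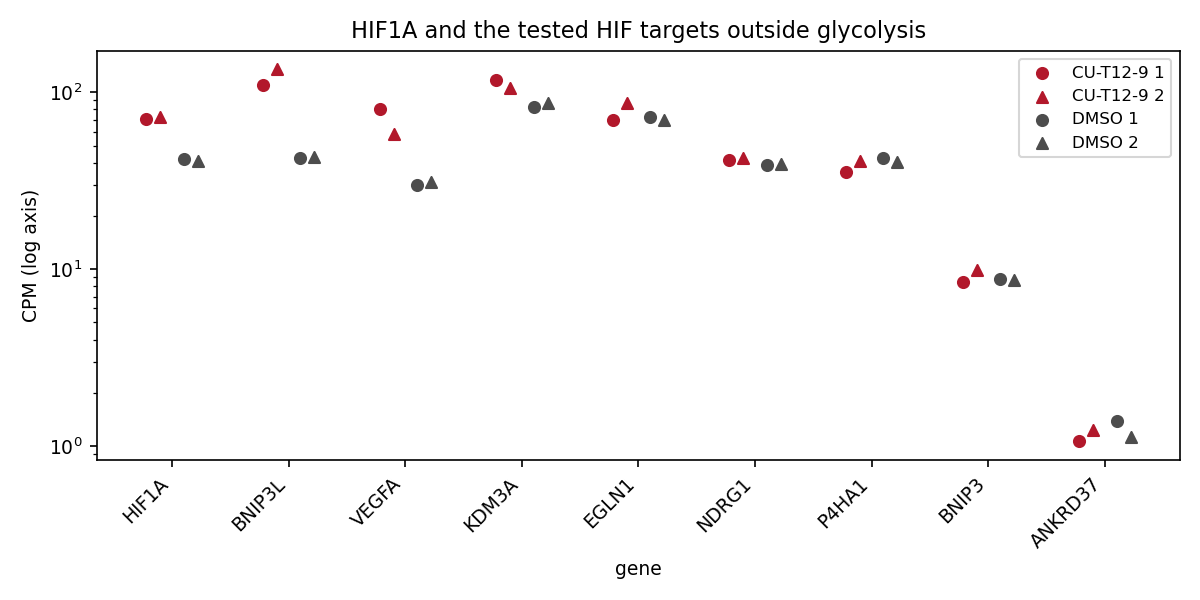
CPM on a log axis of HIF1A and the 8 tested HIF targets outside glycolysis, one point per library. HIF1A, BNIP3L, VEGFA and KDM3A are higher in both CU-T12-9 libraries than in either DMSO library, while EGLN1, P4HA1, BNIP3 and ANKRD37 overlap between groups.

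Set side by side, 38.9% of the 18 glycolytic enzymes and 37.5% of the 8 tested HIF targets were higher, beside 32.0% of all genes. The shares of higher genes in both classes thus lie near that of all genes. Lower were 9 of the enzymes and none of the HIF targets, beside 33.2% of all genes. The enzymes had a median log2 fold change of -0.41. The HIF targets had a median of 0.12, and the median over all genes tested was 0.00. The enzymes have a median of 467 CPM, against 45.2 for the HIF targets and 23.2 for all genes, so the classes differ in depth. The enzymes together took 0.987% and 1.02% of all reads under CU-T12-9, against 1.34% and 1.34% under DMSO. The 10 HIF targets took 0.0469% and 0.0471% under CU-T12-9, against 0.0321% and 0.0322% under DMSO. Most of that rise lay in BNIP3L and VEGFA, while 5 of the 8 tested targets did not pass. BNIP3L averaged 123 CPM under CU-T12-9 and 42.8 CPM under DMSO, and VEGFA 69.3 and 30.4 CPM. No test of the difference between these classes was made, since their genes are not replicates.

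Summing isozymes step by step gives the same picture for the pathway, as values with no test. In CU-T12-9 over DMSO, hexokinase stood at 1.85-fold, phosphofructokinase and aldolase both at 1.05-fold and pyruvate kinase at 1.34-fold. The other 7 steps were lower, at 0.823-fold for the glucose phosphate isomerase, 0.579 to 0.680-fold for the 5 steps from triose phosphate isomerase to enolase, and 0.470-fold for lactate dehydrogenase.

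MYC, a factor that binds the promoters of many glycolytic genes, had 233 and 234 CPM under CU-T12-9 and 472 and 469.9 CPM under DMSO (log2 fold change -1.01, SE 0.05, edgeR adjusted p = 1.33e-07). MKI67, a marker of cycling cells, had 135 and 130.1 CPM under CU-T12-9 and 453 and 472 CPM under DMSO. Both moved with the lower glycolytic enzymes, and their part in that change was not tested.

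Start-site windows were searched for the core of the HIF element, since HK2 and LDHA are both known HIF targets and changed in opposite directions. The windows are RefSeq sequences of GRCh38.p14, from 250 bases before to 50 after a gene start, and were found for 32 members, with 60 windows in all. The table used had none for SLC2A3, SLC16A1, BNIP3L, NDRG1 and VEGFA. The cores ACGTG and GCGTG were sought on both strands, so a palindromic CACGTG counts as a match on each. At least 1 core was in 40 of the 60 member windows (66.7%) and in 48.4% of all 35116 windows. By call, it was in 17 of 31 windows of members that rose, 13 of 18 of those that fell and 9 of 9 of those that did not pass. These are counts of windows, not of members, and genes differ in how many windows they have. HK1 and PFKM supply many of the windows of members that rose, most of them without a core. Among members with a window, HK3 alone of those that rose and PGAM1 alone of those that fell had no core in any. Each of them was found with a sole window, and no other start of either gene was searched. Windows of a gene can overlap and share matches. CACGTG itself, the E-box bound by MYC, was in 8 of the 60 windows and 7.26% of all.

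Printed below, 5′ to 3′ on the gene's strand with HIF cores in capitals, are windows of 1 enzyme that rose and of 3 that fell, chosen after their values were seen to show how many cores each holds. HK2 (chr2:74834920-74835219, plus strand) and LDHA (chr11:18394313-18394612, plus strand) hold 6 matches each, PGK1 (chrX:78103998-78104297, plus strand) 4 and PGAM1 (chr10:97427568-97427867, plus strand) none.
HK2: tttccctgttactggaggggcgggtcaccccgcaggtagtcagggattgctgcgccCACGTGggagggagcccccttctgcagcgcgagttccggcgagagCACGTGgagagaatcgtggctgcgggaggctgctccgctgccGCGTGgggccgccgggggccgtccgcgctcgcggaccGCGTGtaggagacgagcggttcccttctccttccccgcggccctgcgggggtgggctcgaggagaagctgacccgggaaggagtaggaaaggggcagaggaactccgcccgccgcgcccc
LDHA: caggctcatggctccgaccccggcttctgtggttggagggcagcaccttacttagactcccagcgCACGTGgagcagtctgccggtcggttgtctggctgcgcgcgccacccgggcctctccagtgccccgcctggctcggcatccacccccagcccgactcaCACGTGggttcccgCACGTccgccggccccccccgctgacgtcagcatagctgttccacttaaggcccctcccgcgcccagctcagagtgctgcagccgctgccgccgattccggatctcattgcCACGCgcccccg
PGK1: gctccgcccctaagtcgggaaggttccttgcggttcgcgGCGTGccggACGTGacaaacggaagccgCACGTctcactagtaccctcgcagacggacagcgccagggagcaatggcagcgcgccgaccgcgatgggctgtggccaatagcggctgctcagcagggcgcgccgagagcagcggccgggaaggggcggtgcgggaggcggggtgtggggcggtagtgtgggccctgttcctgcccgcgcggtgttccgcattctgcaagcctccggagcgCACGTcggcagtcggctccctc
PGAM1: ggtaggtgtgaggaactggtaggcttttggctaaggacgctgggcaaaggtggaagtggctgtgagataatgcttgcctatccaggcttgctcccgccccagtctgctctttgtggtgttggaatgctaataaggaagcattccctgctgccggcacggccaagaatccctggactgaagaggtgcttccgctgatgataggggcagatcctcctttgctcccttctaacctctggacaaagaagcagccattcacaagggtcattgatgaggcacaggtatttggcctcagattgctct
HK2 and LDHA each have another window, with 3 matches and 1 match. The printed windows of enzymes that fell hold 6, 4 and no matches. Those of HK2 and LDHA each hold 2 palindromic CACGTG, which count on both strands, and that of PGK1 holds none. The surplus of matches in HK2 and LDHA over PGK1 comes from that double counting. PGAM1 is the only enzyme that fell with no core in the windows searched, and its printed window is the sole one found for it. A match is a run of letters, not a bound site.

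Pathways that branch from glycolysis were read from lists of related genes. Of all genes tested 32.0% were higher and 33.2% lower, and the counts of these lists stand beside those shares. The pentose phosphate pathway, which makes NADPH and ribose from glucose 6-phosphate, was mostly higher, with 5 of 8 genes up and 2 down. PGD, a dehydrogenase that forms NADPH, had 1027 and 1061 CPM under CU-T12-9, against 344 and 348 CPM under DMSO (log2 fold change 1.59, SE 0.05, edgeR adjusted p = 1.08e-08). TALDO1 rose by 0.75 on the log2 scale, and RPE, the ribulose phosphate epimerase, fell by 0.68.

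Glycogen genes were split, with 3 of 11 tested genes up and 5 down (27.3% and 45.5%, beside 32.0% and 33.2% of all genes). PYGL, the liver-type phosphorylase that releases glucose from glycogen, had 90.1 and 85.3 CPM under CU-T12-9 and 256 and 265 CPM under DMSO (log2 fold change -1.57, SE 0.05, edgeR adjusted p = 2.04e-08). All 3 tested genes of gluconeogenesis (5 listed) fell, led by the fructose bisphosphatase FBP1 at 1.48 ± 0.588 CPM under CU-T12-9 and 8.69 ± 0.941 CPM under DMSO (SD, n = 2 each). Of 4 tested genes among 14 other glycolytic isozymes and regulators, ADPGK fell by 0.26 on the log2 scale and the other 3 did not pass.

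Downstream of pyruvate, 2 of 11 tested genes of mitochondrial entry rose and 5 fell (18.2% and 45.5%, beside 32.0% and 33.2% of all genes). MPC2, a subunit of the pyruvate carrier, fell by 0.72 on the log2 scale and PDHA1, of the dehydrogenase, by 0.61. The kinase PDK2 rose by 0.75, opposite to PDK1 and PDK3. In the citric acid cycle and citrate export, 11 of 19 tested genes fell and 3 rose. The cycle enzymes SUCLG2, FH and IDH2 had log2 fold changes of -0.79, -0.65 and -0.60, while the citrate synthase gene CS rose by 0.50. IRG1, which makes itaconate in stimulated macrophages, had no read.

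Among other sugar and monocarboxylate carriers, 3 of 7 tested genes rose and 3 fell (42.9% each, beside 32.0% and 33.2% of all genes). SLC2A6 (GLUT6), a carrier of intracellular membranes in leukocytes, rose most, with 239.7 and 254 CPM under CU-T12-9 and 28.8 and 27.4 CPM under DMSO (log2 fold change 3.13, SE 0.06, edgeR adjusted p = 1.23e-09). The fructose carrier SLC2A5 fell by 0.83 on the log2 scale, and BSG, the chaperone of the lactate transporters, by 0.49. Of 6 glucose-sensing genes 5 rose and 1 fell. TXNIP, which curbs glucose uptake, rose by 0.65, its relative ARRDC3 by 1.23, and the glucose-responsive factor MLXIPL fell by 1.27 on the log2 scale.

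Around HIF1A, 8 of 10 tested subunits and regulators rose and 1 fell, beside 32.0% and 33.2% of all genes. EPAS1 (HIF2A), another alpha subunit, had 27.8 and 28.1 CPM under CU-T12-9, against 4.07 and 5.01 CPM under DMSO (log2 fold change 2.62, SE 0.11, edgeR adjusted p = 8.29e-08). The coactivators CREBBP and EP300 rose by 0.83 and 0.67, the partner ARNT by 0.48, and the competitor CITED2 fell by 0.29 on the log2 scale. The negative regulators VHL and HIF1AN rose as well, by 0.24 and 0.18 on the log2 scale (edgeR adjusted p = 0.00342 and 0.0259). HIF3A and ARNT2 had no read. Of 25 tested genes among 35 further hypoxia-induced genes, 13 rose and 4 fell. The repressor BHLHE40 had 72.1 and 71.9 CPM under CU-T12-9 and 11.1 and 11.6 CPM under DMSO (2.67, SE 0.07). CCNG2, an atypical cyclin, and KDM4B, a histone demethylase, rose by 1.22 and 1.02. ERO1L, an oxidase of protein folding, fell by 0.81 on the log2 scale. The carbonic anhydrase gene CA9, often used as a hypoxia marker, had no read in any library. The other 10 of these 35 genes had too few reads to test.

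**Figure D5:**
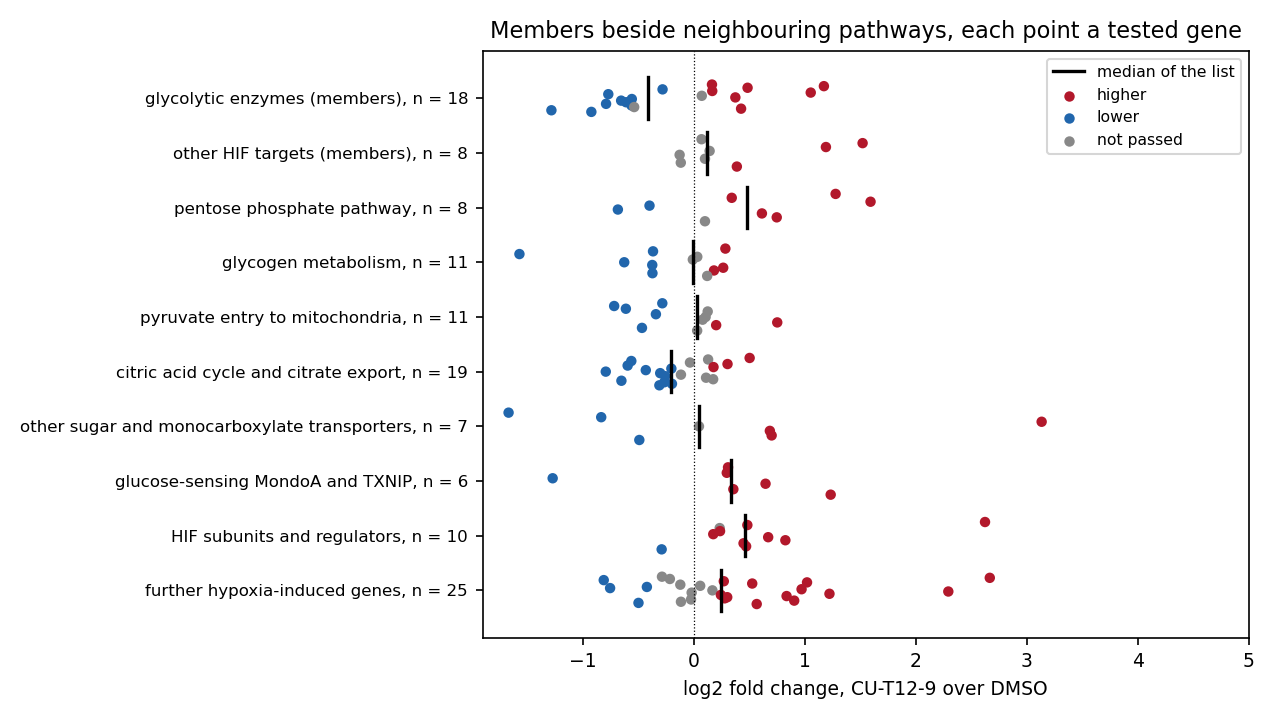
Log2 fold change of CU-T12-9 over DMSO for each tested gene of the member classes and of 8 neighbouring lists, with the list's median as a bar and n the number tested. The enzyme median lies at -0.41 and that of the pentose phosphate pathway at 0.48, and SLC2A6 is the point beyond 3.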

How the data were processed

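RNA of 4 libraries was sequenced, and the table the authors deposited holds raw counts of reads for each gene symbol. The submitters' processing notes name FastQC 0.11.7, TopHat2, the build GRCh37 and featureCounts 1.5.2. Annotation, strand setting and treatment of multiply mapping reads are not stated in them, so genes with near-identical copies or antisense partners are uncertain.

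Counts were analysed in R 4.3.3 with edgeR 4.0.16: filterByExpr (14018 genes kept), TMM scaling, a quasi-likelihood F-test with group as the only term, and Benjamini-Hochberg adjustment across these genes, at 0.05. The biological coefficient of variation was 5.0%. SE is the log2 fold change over the square root of F. CPM values use the TMM-adjusted library sizes of tested genes, at which 1 read is 0.0384 to 0.0442 CPM. Calling was first tested on simulated data. DESeq2 1.42.0, limma-voom (limma 3.58.1), glmTreat against a 1.5-fold change, other scalings and filters, a replicate block and leaving out each library were alternatives. Levels per kilobase use transcript lengths of GENCODE release 29, which is not the annotation of the counts.

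Members and lists were chosen with earlier results of these data known. Members were named with all 4 values where they passed with a log2 change of at least 0.58 or were the sole or most read isozyme of a step, and smaller ones besides. Of other lists, genes among the 4 with the largest passing changes were named. CITED2, VHL, HIF1AN, CS, BSG, ERO1L, MYC, MKI67 and genes without reads fall outside this rule and were added after their values were seen.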

Additional observations from a re-analysis of the deposited data

How the results depend on the processing

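Direction and call of all 35 tested members held with DESeq2 size factors, library totals, upper-quartile factors, limma-voom, a filter of 1 CPM and the replicate block. The scalings moved the median of all genes by at most 0.03 (log2). Against a 1.5-fold change, 1761 genes were higher and 1688 lower, with 5 members higher and 5 lower, and 2 glycolytic enzymes higher and 4 lower; that test asks for a larger change by construction. The DESeq2 Wald test called 4 enzymes higher in place of 7. With 1 library left out, which leaves that group a lone library assumed to vary like the other group, members higher ranged from 10 to 16 and lower from 13 to 15, enzymes higher from 4 to 8 (4 without the first or the second DMSO library), other HIF targets higher from 3 to 5 (5 without the first CU-T12-9 library) and lower from 0 to 1 (1 without the second). Log2 fold changes that changed sign there, none of them called with all 4 libraries, ran from -0.0057 to 0.18 for ALDOA, -0.23 to 0.019 for PFKFB4, -0.054 to 0.22 for BNIP3, -0.022 to 0.32 for EGLN1, -0.27 to 0.022 for ANKRD37 and -0.22 to 0.012 for P4HA1, and the log2 shift of the ENO2 to ENO1 ratio from -0.18 to 0.25. The cause was not tested. Adding pseudogene rows moved none of the 12 ratios beyond their spread. The libraries share the numbers 1 and 2, but nothing says that these pair cultures, and deviations of same-numbered libraries correlated at 0.01 across genes. With the replicate block 13 members were higher and 13 lower, with 4488 and 4655 of all genes. Depth limits ADM and EGLN3, which were not tested.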
